A study of Mus musculus with 2 samples.

Results

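Grb10 and Ddc are neighbouring imprinted genes on mouse chromosome 11, and the CTCF sites described here are those in and around the pair in newborn heart. Sites were taken from the authors' optimal peak list, which they thresholded by IDR (irreproducible discovery rate, a measure of reproducibility). A site was included when its summit lay between 200 kb before and 200 kb after the span of both gene records (GENCODE M21, mm10). The window runs over 624.583 kb of chromosome 11, 11614101 to 12238683, and holds 15 of the 44533 optimal summits. The study consists of CTCF ChIP-seq on newborn heart (postnatal day 0) from B6NCrl mice, with 2 libraries in 1 group and no other treatment, genotype or age. The labels number the libraries as biological replicates 1 and 2 but give both the same tissue sample and donor identifier, and their spread may thus be technical. There is no contrast in the design, and every value below is a description without a test.

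CTCF is a zinc finger protein that binds a long DNA motif and, with cohesin, anchors chromatin loops. Loop anchors are commonly held by motifs that point towards each other, and binding at some imprinted loci is blocked on the allele whose CpGs are methylated. Grb10 encodes an adaptor that binds the insulin and IGF1 receptors and restrains fetal growth, and in the mouse it is expressed from the maternal allele in most tissues and from the paternal allele in neurons. Ddc encodes aromatic L-amino acid decarboxylase, which makes dopamine and serotonin from their precursors, and 1 of its transcripts is expressed from the paternal allele in the developing heart. Peak lists carry no transcript levels and do not separate the parental alleles, so neither the heart origin nor the imprinting could be checked, and the imprinted Ddc transcript was not matched to a GENCODE record.

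Grb10 (ENSMUSG00000020176.17) spans 11930508 to 12038683 and Ddc (ENSMUSG00000020182.16) spans 11814101 to 11898144, both on the minus strand. Grb10 therefore lies upstream of Ddc in the direction of transcription, with 32.363 kb between the records. Sites were numbered 1 to 15 along increasing coordinate: 5 lie beyond the Ddc 3' end, 3 in Ddc, 3 in Grb10 and 4 beyond the Grb10 5' end, and the interval between the genes holds none. The nearest optimal summits outside the window lie at 11557316, with signal 121, and at 12291574, with signal 131; the outermost inside it are site 1 at 11742932 and site 15 at 12206004.

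The sequences near the summits differ between the sites. They are read from the reference genome (GRCm38.p6, mm10 coordinates), for the sites inside both genes, the 5 strongest sites of the window and those within 1000 bp of a Grb10 or Ddc transcript 5' end. Each is written 5' to 3' on the strand given, with the 14 bases that best match the CTCF core consensus within 50 bp of the summit in capitals. In sites 2, 5, 6, 8, 9 and 10 the capitals are a core, defined as a match with at most 2 mismatches.
Site 6, Ddc intron 12, chr11:11820390-11820433, plus strand, 0 mismatches: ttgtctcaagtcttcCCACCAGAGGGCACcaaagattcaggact
Site 5, beyond the Ddc 3' end, chr11:11812130-11812173, plus strand, 1 mismatch: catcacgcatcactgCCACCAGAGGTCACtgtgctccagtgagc
Site 8, Ddc intron 7, chr11:11844462-11844505, minus strand, 1 mismatch: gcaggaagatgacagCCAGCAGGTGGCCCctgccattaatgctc
Site 9, Grb10 intron 2, chr11:11973590-11973633, minus strand, 1 mismatch: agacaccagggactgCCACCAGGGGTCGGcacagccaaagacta
Site 10, Grb10 intron 2, chr11:11975073-11975116, minus strand, 2 mismatches: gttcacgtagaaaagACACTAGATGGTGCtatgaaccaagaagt
Site 2, exon of a Fignl1 transcript, chr11:11788584-11788613, minus strand, 1 mismatch: ttctgttgCCACTAGGGGGCGAgcgcctct
In sites 7, 11 and 12 the capitals are the closest 14 bases and fall short of a core.
Site 7, Ddc intron 9, chr11:11834523-11834566, plus strand, 4 mismatches: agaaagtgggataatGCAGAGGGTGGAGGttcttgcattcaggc
Site 11, first exon of Grb10-209, chr11:12025857-12025886, plus strand, 3 mismatches: agacttcgCCACACGGGGTCGCtgcgtgcg
Site 12, upstream of Grb10, chr11:12039346-12039389, minus strand, 3 mismatches: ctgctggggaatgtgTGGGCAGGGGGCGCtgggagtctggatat

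The 4 strongest sites of the window all carried a core within 50 bp of the summit and lay inside Ddc, just past its 3' end or in Grb10 intron 2. A core is common in the whole optimal list, at 73.5% of peaks. Peaks with a core are also stronger there, with a median signal of 78.7 against 31.3 without. The cores of sites 8 and 9 are centred 42.5 and 35.5 bp from their summits, beyond the alternative reach of 25 bp. Signal is the authors' value per peak, on a scale that the sources used here do not give. Site 6 had a pooled signal of 217, with 114 in replicate 1 and 104 in replicate 2 (mean 109 ± 7.33, SD, n = 2). Site 5, 1.948 kb past the Ddc 3' end, had 213, with 108 in replicate 1 and 103 in replicate 2 (106 ± 3.57). Site 9 had 208, with 118 in replicate 1 and 90.2 in replicate 2 (104 ± 19.98). These 3 ranked 1970, 2183 and 2453 of 44533 and were above the upper decile of the optimal list, which begins at 184. Site 8 had 183, just under that decile, with 94.1 in replicate 1 and 89.3 in replicate 2 (91.7 ± 3.33). The order of sites 5, 6 and 9 did not hold between the libraries: site 9 was highest in replicate 1 and site 6 in replicate 2, and their means differed by less than the SD of site 9.

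**Figure D1:**
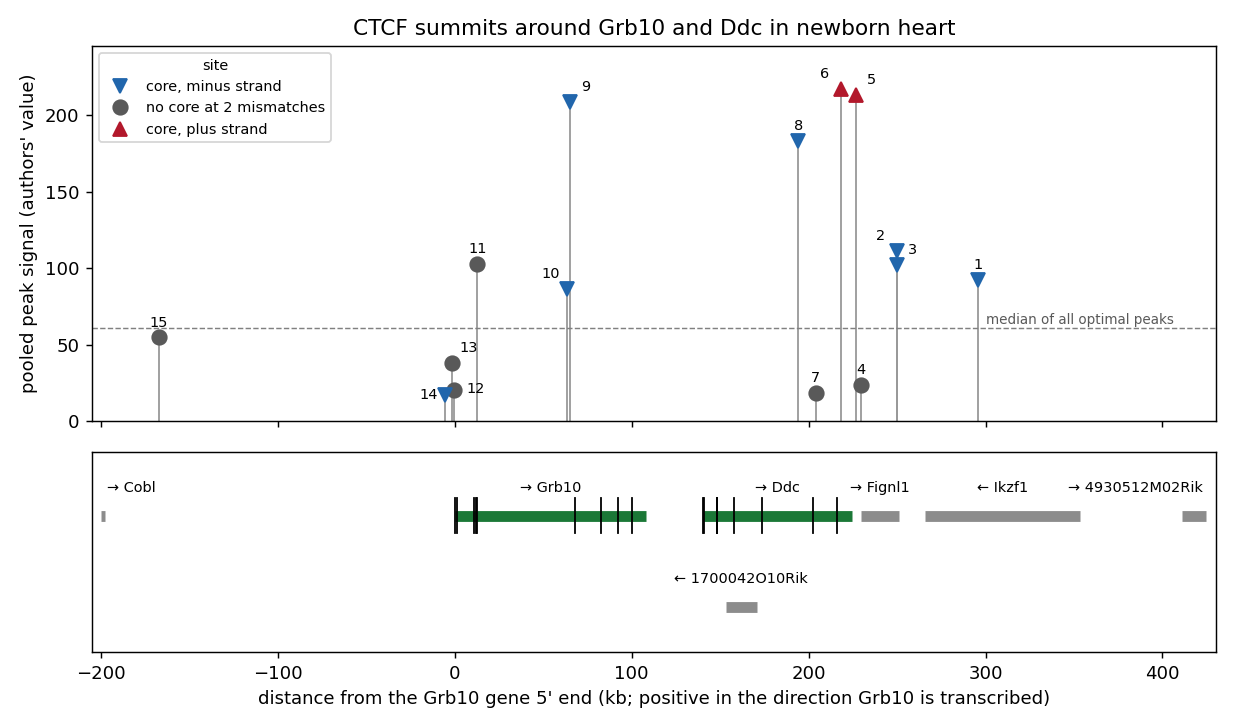
Pooled peak signal of the 15 sites (vertical axis, the authors' value) against distance from the Grb10 gene 5' end in kb, positive in the direction in which Grb10 and Ddc are transcribed, with gene records below and the transcript 5' ends of both genes as black ticks. Triangles mark the genomic strand of a core within 50 bp of the summit, and the 4 strongest sites stand at 183 to 217, against the dashed list median of 60.8.

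Within Ddc, the sites lay towards the 3' end of the record, away from the 5' ends of its protein-coding transcripts. Sites 7 and 6 lie 1725 and 2508 bp from the 5' ends of the short processed transcripts Ddc-205 and Ddc-206. Going with transcription, site 8 is in intron 7, 53.7 kb downstream of the gene 5' end, site 7 in intron 9 and site 6 in intron 12 (introns of Ddc-201). Site 7 was weak, with a pooled signal of 18.4, 7.88 in replicate 1 and 7.10 in replicate 2, at or above 11.4% of optimal peaks. A core with at most 2 mismatches lies in its peak, but more than 50 bp from the summit. Sites 5 and 6, 8.26 kb apart, have cores on the plus strand, and the core of site 8 is on the minus strand. Those of sites 6 and 8 thus point towards each other across 24.0 kb of the Ddc 3' portion. The core of site 8 is centred 42.5 bp from its summit, so this pairing rests on the reach of 50 bp.

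Within Grb10, site 9 and site 10 form a pair 1.523 kb apart in intron 2, and site 11 lies 50.777 kb nearer the gene 5' end. Site 10 had a pooled signal of 86.2, with 49.1 in replicate 1 and 31.2 in replicate 2, and its core is on the minus strand like that of site 9. Site 11 had 103, with 42.1 in replicate 1 and 58.4 in replicate 2 (50.3 ± 11.5, SD, n = 2), at or above 66.8% of optimal peaks. It was the strongest of the 6 window sites without a core. Site 9 lies 2934 bp upstream of the 5' end of Grb10-202, a protein-coding transcript that starts inside the gene.

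Upstream of the Grb10 gene 5' end stood a group of 3 weak sites. Site 12, 698 bp upstream, had a pooled signal of 20.6, with 11.6 in replicate 1 and 7.23 in replicate 2. Site 13, 1339 bp upstream, had 38.1, with 15.9 in replicate 1 and 20.5 in replicate 2. Site 14, 5776 bp upstream, had 17.2, with 7.95 in replicate 1 and 7.40 in replicate 2, the lowest pooled signal of the window, and its sequence holds a core with 1 mismatch. In each library taken alone, site 7 was lower. Sites 12, 13 and 14 were below the list median of 60.8. Site 15, 167 kb upstream of Grb10 towards Cobl (an actin nucleator gene), had 54.8, with 27.1 in replicate 1 and 26.1 in replicate 2. It stands alone there in the optimal list only. The conservative list adds 1 summit between it and Cobl, at 12231562. That summit had a pooled signal of 14.2, with 7.64 in replicate 1 and 7.30 in replicate 2.

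Beyond the Ddc 3' end, sites 2, 3 and 4 fall at Fignl1, an AAA ATPase gene of homologous recombination repair, and site 1 in an intron of Ikzf1, a lymphoid transcription factor gene. Sites 2 and 3 lie 0.326 kb apart in exon 4 of the processed transcript Fignl1-205. Site 2 had a pooled signal of 111, with 57.1 in replicate 1 and 52.9 in replicate 2. Site 3 had 102, with 47.7 in replicate 1 and 53.4 in replicate 2. Site 1 had 92.5, with 52.2 in replicate 1 and 40.6 in replicate 2. These 3 were of middle strength, at or above 63.3% to 69.5% of optimal peaks. Site 4, 120 bp upstream of the Fignl1 5' end, was weak, with a pooled signal of 23.7, 10.1 in replicate 1 and 14.2 in replicate 2. The other window genes, 4930512M02Rik and the antisense 1700042O10Rik inside Ddc among them, hold no summit inside the window. Cobl runs past the window edge, and the next summit outside, at 12291574, lies in its record.

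**Figure D2:**
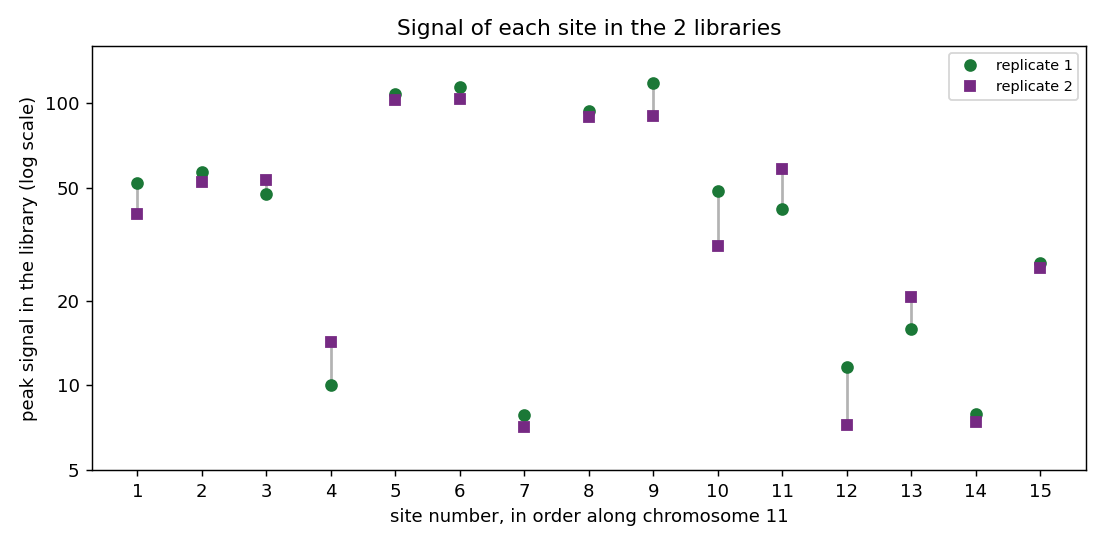
Signal of each site in replicate 1 (circles) and replicate 2 (squares) on a log axis, with sites in order along chromosome 11. Sites 5, 6, 8 and 9 are at 89.3 or more in both libraries, and replicate 2 is the higher library at sites 3, 4, 11 and 13.

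Both libraries held all 15 sites, with a relaxed summit within 100 bp in each, as did 97.1% of the optimal list. All 15 were also in the conservative list, against 89.4% of optimal summits. Replicate 2 was above replicate 1 at 4 of 15 sites and at 25.7% of optimal peaks found in both libraries. On the log2 scale, replicate 2 minus replicate 1 was -0.10 in the median of the window and -0.22 in that of the list, and it ranged from -0.68 at site 12 to 0.50 at site 4. Sites 4, 11 and 13, at 0.50, 0.47 and 0.37, were above the 90th percentile of the list, 0.31, and none was below the 10th, -0.79. Sites 4 and 11 are also the CpG-rich sites of the window. Across the list, CpG-rich peaks had a median log2 ratio of -0.16 (4111 peaks), against -0.23 for the others (39110 peaks), and the part of CpG content in the ratio was not tested.

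The 15 sites gave 24.0 summits per Mb in the window, against 27.4 on chromosome 11 and 16.8 over all assembled chromosomes. Of 187 windows of the same length tiled along chromosome 11, with 0 to 56 summits and a median of 15, 95 held as many or more. The ratio to chromosome 11, 0.875, was 1.20 with a flank of 100 kb and 0.744 with 500 kb, so its direction depends on the flank. Median pooled signal was 92.5 in the window, against 60.8 in the optimal list and 65.0 on chromosome 11, and 9 of 15 sites were at or above the list median. Of the 15 summits, 4 had another within 1000 bp (sites 2 and 3, 12 and 13), against 8.12% of optimal summits.

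The strong sites of Ddc and Grb10 stand on either side of most Ddc transcript 5' ends. No optimal summit lies in the 129 kb between site 8 in Ddc intron 7 and site 9 in Grb10 intron 2, an interval that holds 8 of 10 Ddc transcript 5' ends and 4 of 9 Grb10 ones. On chromosome 11, 5.22% of gaps between neighbouring summits are as wide or wider. The widest gap of the window, 162 kb between sites 14 and 15, lies upstream of Grb10, and 3.47% of chromosome 11 gaps reach it. The median gap in the window was 11.7 kb, against 15.8 kb on chromosome 11.

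A core within 50 bp of the summit was found at 9 of 15 sites, against 73.5% of optimal peaks; with at most 3 mismatches the counts were 13 of 15 and 91.3%. In windows 1000 bp to the left and right of the summits, 1 window site on each side had a core, against 2.79% and 2.94% of optimal peaks. Median signal was 111 at the 9 sites with a core and 30.9 at the 6 without, and the list showed 78.7 and 31.3 for the same classes. The classes overlapped in the window, since site 14 with a core had 17.2 and site 11 without had 103. Of the 9 cores, 7 are on the minus strand, and the plus-strand cores are those of sites 5 and 6. The strand share over the whole list is not given here, and a relation to gene strand was not tested. Site 6, in the minus-strand gene Ddc, has a plus-strand core. Site 1, in the plus-strand gene Ikzf1, has a minus-strand core. Along increasing coordinate the order is minus at sites 1, 2 and 3, plus at 5 and 6, and minus at 8, 9, 10 and 14. A CpG lies inside 3 of the 9 cores (sites 1, 2 and 9), against 33.6% of cores in the list.

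Site 11 had the most CpGs around its summit of the sites in Grb10 and Ddc. It lies 448 bp downstream of the 5' end of Grb10-209 and 856 bp downstream of that of Grb10-207, in the 5' untranslated first exon of Grb10-209 and in intron 1 of Grb10-201. The 201 bp around its summit hold 21 CpGs, more than in 97.4% of optimal peaks, with 69.2% GC and an observed to expected CpG ratio of 0.879. The list median is 3 CpGs. The CpG island around it, 12025411 to 12026723, is 1313 bp long with 143 CpGs and holds no core at 2 mismatches. The part of the peak that lies in the intron, its CpG-poorer end, is shown on the plus strand with each CpG in capitals.
Site 11, intronic part of the peak, chr11:12025764-12025837: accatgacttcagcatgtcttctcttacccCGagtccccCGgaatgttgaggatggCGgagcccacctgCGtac
These 74 bases hold 4 of the 23 CpGs of the 224 bp peak, so most of them lie in the exonic part, which is not printed. Methylation was not measured in these libraries.

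Over the window, 2 of 15 summits lay in CpG-rich sequence (at least 50% GC and an observed to expected ratio of at least 0.6 in 201 bp), against 9.81% of optimal summits. These are site 11 and site 4, which has 20 CpGs and stands in the 990 bp island of the Fignl1 5' ends. By the same limits applied to 200 bp windows that were then merged, the window holds 35 CpG islands, and 4 of them hold a summit. Besides sites 4 and 11 these are site 10 in Grb10 intron 2, in an island of 221 bp with 9 CpGs, and site 2 in the Fignl1 exon, in one of 293 bp with 8. Of the 7 islands of at least 500 bp, those of sites 4 and 11 are the 2 with a summit. The share of islands with a summit over the chromosome or genome is not given here. Whether these island counts are ordinary is therefore unknown. Some merged islands fall short of the limits as a whole. That of site 2 has 47.4% GC and a ratio of 0.488, and the one at 12129160 to 12129752, without a summit, has a ratio of 0.579. Those starting at 11720111 and 11827678 hold 1 CpG each, so the counts of islands are loose. The longer island at the 5' end of Grb10-201, 12036360 to 12038158, has 217 CpGs in 1799 bp and no optimal summit. Its strongest relaxed peak, 159 bp downstream of that 5' end, had a pooled signal of 16.2, with 5.86 in replicate 1 and 7.68 in replicate 2. In the optimal list, 7.53% of peaks are at or below that signal.

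**Figure D3:**
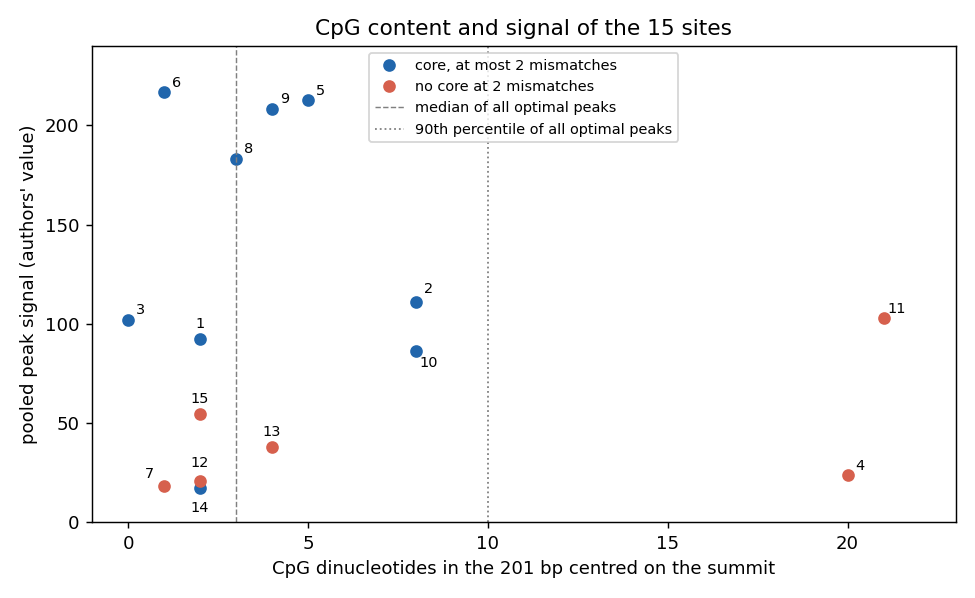
Pooled peak signal (vertical axis, the authors' value) against the number of CpGs in the 201 bp centred on the summit, 1 point per site, blue with a core within 50 bp of the summit and red without. Sites 11 and 4 stand apart at 21 and 20 CpGs, and the 4 strongest sites have 1 to 5.

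Sites lay near some Grb10 transcript 5' ends and near no Ddc one. Of the 9 Grb10 5' ends, 3 had an optimal summit within 1000 bp: Grb10-206 at 698 bp upstream (site 12), and Grb10-207 and Grb10-209 at 856 and 448 bp downstream (site 11). Of the 10 Ddc 5' ends, none did. The share over all transcript 5' ends (132629 distinct positions) was 16.1%. Several 5' ends nearly coincide: Ddc-202, Ddc-204, Ddc-208 and Ddc-209 start between 11890369 and 11890408. The counts are thus of few separate starts, and their difference from that share was not tested. In the window, 3 of 15 summits (sites 4, 11 and 12) were within 1000 bp of the 5' end of a transcript of any gene, against 19.6% of optimal summits. The long protein-coding transcripts Ddc-201 and Ddc-210 start 53603 and 53703 bp upstream of site 8, the nearest, and Ddc-202 starts 45967 bp upstream of it. The nearest approaches to a Ddc 5' end were at 2 short processed transcripts, Ddc-205 with site 7 at 1725 bp and Ddc-206 with site 6 at 2508 bp. In the relaxed list, which includes weak and background peaks, the strongest peak within 1000 bp of Ddc-201 had a pooled signal of 11.4, with 6.15 in replicate 1 and 3.25 in replicate 2. At 4 Ddc 5' ends, those of Ddc-202, Ddc-204, Ddc-208 and Ddc-209, no relaxed peak lay within 1000 bp.

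**Figure D4:**
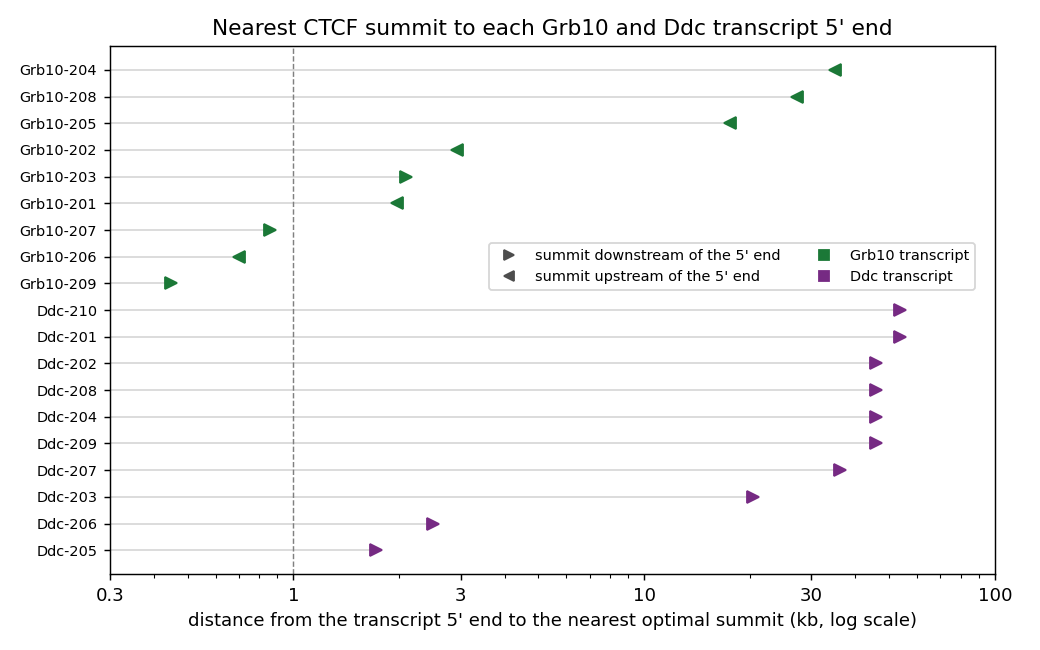
Distance in kb (log axis) to the nearest optimal summit, for each transcript 5' end of Grb10 (green) and Ddc (purple), with arrowheads giving the side on which the summit lies. Grb10-206, Grb10-207 and Grb10-209 are left of the dashed line at 1 kb, and Ddc-201, Ddc-202, Ddc-204, Ddc-208, Ddc-209 and Ddc-210 lie at 45.9 to 53.7 kb.

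Measured from the gene 5' end, Grb10 was nearer to a summit than most genes and Ddc farther. The nearest was at 0.698 kb for Grb10, and 18.5% of 21938 protein-coding genes have one nearer. For Ddc it was at 53.7 kb, and 17.2% have theirs farther away; the median gene has one at 9.85 kb. Counted over the gene records, Grb10 has 2.77 and Ddc 3.57 summits per 100 kb, against a median of 1.95 for the 4009 protein-coding genes of 50 to 200 kb. Of those genes, 36.8% hold 3 or more summits, as both members do.

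The promoter sequences of the members differ in CpG content. RefSeq promoters (GRCm38.p6, 250 bases before to 50 after the start) matched both genes, with 2 entries each. The Grb10 promoter at 12037371 to 12037670 has 45 CpGs, more than 98.1% of 32851 promoters, and that at 12027922 to 12028221 has 9. The Ddc promoters have 2 at 11898095 to 11898394 and 5 at 11890359 to 11890658, against a median of 7 over all promoters. None of the 4 holds a core at 2 mismatches on either strand, which 14.4% of all promoters do.

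Within 10 kb of the gene 5' end, Grb10 had weak sites and Ddc had none. An optimal summit within 10 kb of the gene 5' end was found for 43 of 62 imprinted genes (69.4%), against 50.3% of all protein-coding genes. The median strongest signal was 61.1 over those 43 and 88.3 over all such protein-coding genes. The imprinted list also includes noncoding genes, and neighbouring genes in it can share a peak. Grb10 is among the 43 through sites 12, 13 and 14, of which the strongest is site 13 at 38.1, and Ddc is not. That value rests on the reach of 10 kb from the outermost 5' end: site 11, at 103, lies 12.8 kb downstream of it, and would put Grb10 above the list median. The highest of the list was H13, a signal peptide peptidase gene, with 278 (149 in replicate 1 and 130 in replicate 2). It was followed by Mcts2, a retrogene in an H13 intron, with 227, and by Cdkn1c, a cell cycle inhibitor gene, and Slc22a18, a transporter gene, which share a peak of 207. Of the 62 genes, 15 have a summit nearer than Grb10 and 6 have theirs farther than Ddc.

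Among 35 genes of insulin and IGF signalling, the pathway that Grb10 restrains, 26 (74.3%) had a summit within 10 kb, with a median strongest signal of 122, against 50.3% and 88.3 over all protein-coding genes. The strongest were at Igfbp5 with 228, Igf1r with 219, Foxo1 with 199 and Igfbp3 with 184, which encode IGF-binding proteins, the IGF1 receptor and a transcription factor that insulin signalling restrains. Grb10, at 38.1 by the same reach, was below that median. Among 19 genes of amine synthesis and transport, the pathway of Ddc, 9 (47.4%) had a summit within 10 kb, a share near the 50.3% of all protein-coding genes, with a median of 95.6. The strongest were at Pts with 210, Spr with 182, Tph2 with 153 and Slc6a4 with 147. Pts and Spr make the tetrahydrobiopterin cofactor, Tph2 is the tryptophan hydroxylase of neurons and Slc6a4 the serotonin transporter. Ddc is among the 10 without one, as are Th and Dbh, the other enzymes of the noradrenaline route. This likeness rests on the reach of 10 kb. The nearest summit is at 11.7 kb for Th and 17.9 kb for Dbh, against 53.7 kb for Ddc. Within 50 kb, 17 of the 19 genes had a summit, Th and Dbh among them but not Ddc.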

How the data were processed

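CTCF ChIP-seq peaks of newborn mouse heart were taken from 5 deposited lists on mm10. Per the files' own text records, the authors called 3 relaxed lists of 300000 peaks on replicate 1, replicate 2 and both, against a control alignment not used here. IDR then gave the optimal and conservative lists. The aligner and the peak caller were not given in the sources used here. Signal is the value the authors deposited per peak, and its scale is not stated. Read depth is unknown, so no counting interval is given. Replicate values are those of the nearest relaxed summit within 100 bp, without scaling between libraries.

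Summits are the peak start plus the deposited offset. Positions, genes and sequence came from GENCODE M21 and GRCm38.p6, with python 3.11.15, numpy 2.4.6 and matplotlib 3.10.9. The core search took 14 bases on both strands and was tested on simulated data. CpG islands are merged stretches of 200 bp windows with at least 50% GC and an observed to expected ratio of at least 0.6. A merged stretch can fall below these limits as a whole. The genes named are the members, the protein-coding genes of the window and the 4 of each list with the strongest summit within 10 kb; the other genes named without a summit were added after their values were seen. Members and lists were chosen with earlier results of these data known. Alternatives were the conservative list, each library alone, and other flanks, distances and mismatch limits.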

Additional observations from a re-analysis of the deposited data

How the results depend on the processing

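Of 45 alternative values over 14 results, 30 stayed within the limits set for a change and 15 moved. This tally is not a measure of robustness, because the limits were not alike across results. The Ddc distance counted as moved from 53703 to 53704 bp. The number of sites with a core counted as unchanged from 9 to 13. With the conservative list the window held 16 summits, with a median signal of 89.4 and a density ratio to chromosome 11 of 0.967. Restricting the list to peaks at or above its median left 9 summits. The density ratio was 1.20 with a flank of 100 kb and 0.744 with 500 kb. With 1 library left out, using as many of the strongest relaxed peaks of the other, the window held 13 summits either way. The density ratio was then 0.759 to 0.764, the median signal 49.1 to 52.9 and the strongest signal 104 to 118; single-library signals are lower than pooled ones throughout. The nearest summit to the Grb10 gene 5' end was at 698 to 1341 bp, the larger value without replicate 1, where site 12 dropped out, and to the Ddc gene 5' end at 53703 to 53704 bp. Without replicate 2 the Ddc record held 2 summits. Within 2000 bp of a transcript 5' end, 5 summits counted as promoter sites, and within 50 kb of the gene 5' end 17 amine genes had a summit. Cores were found at 7 sites with at most 1 mismatch or within 25 bp, 13 with at most 3 mismatches and 10 within 100 bp. No paired analysis was possible because there is 1 group. The labels do not settle whether the 2 libraries come from separate tissue samples, so the spread between mice is unknown, and weak sites such as 7, 12 and 14 rest on the lowest signals.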
